A study of Mus musculus with 3 samples.

Results

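Wnt4, Wnt5a, Wnt7b, Wnt9b and Wnt11 are the 5 Wnt ligands best known for roles in the embryonic kidney, and they are described here in single cells of 3 mouse kidney plates. They were chosen by name, and all 5 were listed on every plate, where the tables held 22535 features for the E12.5 cultured plate, 23989 for the E11.5 cultured plate and 23720 for the E11.5 uncultured plate. Of 19 Wnt ligand genes in the mouse, 12, 11 and 13 had a count on these plates in the same order. The 5 ligands took 94.3%, 91.1% and 91.6% of all Wnt ligand counts there.

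Transcripts were counted by SORT-seq, in which 1 sorted cell lies in each well of a 384-well plate and every transcript carries a molecular identifier. The study asked which kidney cells express Lgr6, an R-spondin receptor of the Wnt pathway, and what those cells become. All mice were C57BL/6. The E12.5 cultured plate held cells of E12.5 kidneys kept as explants for 5 days. The E11.5 cultured plate held cells of E11.5 kidneys kept for 7 days by its title, but for 5 days by its stage label. Mice of both cultured plates carried the alleles LGR6-EGFP-IRES-CreERT2 and ROSA26-tdTomato, a Lgr6 reporter with an inducible Cre and a Cre-dependent red reporter. The E11.5 uncultured plate held cells of E11.5 kidneys with LGR6-EGFP-IRES-CreERT2 alone. There was 1 plate per group, so no test across replicates was possible and no p-value is given. The cultured plates differed from the uncultured one in culture, genotype and sequencing run at once, and for the E12.5 plate in starting stage too, and the parts of these in any difference cannot be told apart.

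Wnt proteins are secreted lipid-modified ligands that bind Frizzled receptors and signal either through beta-catenin or through pathways of cell polarity and movement. In the embryonic kidney, Wnt9b and Wnt11 come from the ureteric bud, Wnt9b acting on the nephron progenitors around it and Wnt11 marking the branching tips. Wnt4 is made by the progenitors that condense into the first nephron structures, and also in stroma, and Wnt7b comes from the ureteric trunk and collecting duct. Wnt5a is a mesenchymal ligand that acts largely without beta-catenin.

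Kept were 200 wells of the E12.5 cultured plate, 300 of the E11.5 cultured plate and 337 of the E11.5 uncultured plate, with 2349129, 3210838 and 4159791 counts. The median well held 9212, 8992.5 and 6732 counts. On the uncultured plate 32 wells, each over 3 times the median, held 45.6% of all counts, against 7 wells with 15.0% on the E12.5 cultured plate and 9 wells with 10.6% on the E11.5 cultured plate. Summed stroma markers stood at 15951 and 21743 counts per 1000000 counts (CPM) on the E12.5 and E11.5 cultured plates, against 2463 CPM on the uncultured plate. Summed nephron progenitor markers stood at 409 and 256 CPM, against 1490 CPM, and summed ureteric markers at 285 and 255 CPM, against 395 CPM. Levels below are therefore means over different mixtures of cells, and a change in the share of a cell type and a change in its transcripts cannot be told apart. Each interval in parentheses is an exact 95% interval that covers counting error only and leaves out the spread between cells and between embryos.

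**Figure D1:**
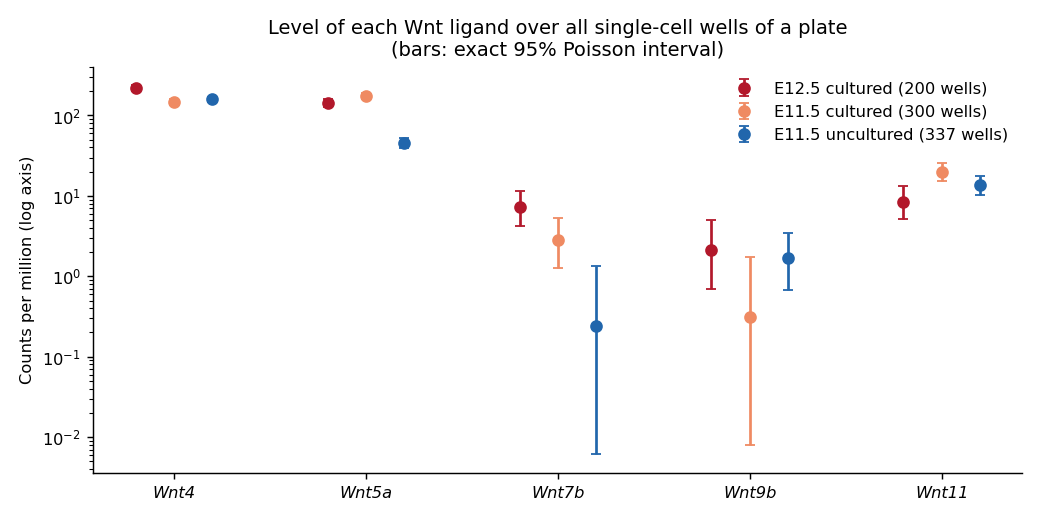
Level of each ligand in CPM (log axis) over the single-cell wells of the E12.5 cultured, E11.5 cultured and E11.5 uncultured plates, with exact 95% Poisson intervals. Wnt4 stood at 219, 147 and 159 CPM, Wnt5a at 143, 173 and 45.7 CPM, and Wnt7b and Wnt9b were under 8 CPM on all 3 plates.

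Wnt4, the ligand of condensing nephron progenitors, had similar summed levels on the 2 E11.5 plates and a higher one on the E12.5 cultured plate. It stood at 219 CPM (201 to 239) on the E12.5 cultured plate, 147 CPM (134 to 161) on the E11.5 cultured plate and 159 CPM (147 to 172) on the E11.5 uncultured plate. By summed counts the E12.5 cultured plate was 1.38-fold (1.22 to 1.55) and the E11.5 cultured plate 0.92-fold (0.82 to 1.04) the uncultured plate, and the E12.5 cultured plate was 1.5-fold (1.32 to 1.70) the E11.5 cultured plate. The uncultured value leaned on deep wells: 1 well with 151478 counts held 150.7 of the 662.7 Wnt4 counts, or 22.7%. Without wells over 3 times the median, the ratios to the uncultured plate were 2.05 (1.77 to 2.39) for the E12.5 cultured plate and 1.25 (1.07 to 1.46) for the E11.5 cultured plate. The similar level on the E11.5 plates thus rests in part on those wells.

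Wnt4 was concentrated in few wells on each plate. A count of it was found in 70 of 200 wells of the E12.5 cultured plate, 102 of 300 of the E11.5 cultured plate and 129 of 337 of the uncultured plate, or 35.0%, 34.0% and 38.3%. The 10 wells with most Wnt4 held 49.7%, 44.3% and 59.0% of its counts. Among wells with it, the median was 326 CPM and the highest 3221 CPM on the E12.5 cultured plate, 208 and 5171 CPM on the E11.5 cultured plate, and 240 and 1787 CPM on the uncultured plate.

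Macrophages are a lineage apart from nephron, ureteric bud and stroma, though they can make some Wnt ligands in other settings. Wells with at least 3 of 8 macrophage markers served as a measure of background. Some of these wells also held Six2, Foxd1 or much Col1a1. Background and expression by other cells thus cannot be told apart in them. Of these wells, 0 of 6 on the E12.5 cultured plate held Wnt4, which allows a share of up to 45.9%, 4 of 23 (17.4%) did on the E11.5 cultured plate and 6 of 20 (30%, 11.9% to 54.3%) on the uncultured plate. Their median depths were 14214, 11549 and 6121 counts. The Wnt4 level in them was 0 CPM, 109 CPM (77.7 to 149) and 79.5 CPM (39.7 to 142). The share of all wells with Wnt4 was within the interval of this share on the E12.5 cultured, E11.5 cultured and uncultured plates, and the level of all wells was within that of these wells on the E11.5 cultured plate. Of the 39 E11.5 cultured background counts 13 came from 1 well, without which that level was 93.3 CPM (61.0 to 137), below the level of the plate. That well had 78448 counts in all, with 14 of Six2, 31.1 of Foxd1 and 392.2 of Col1a1. Shares of wells are therefore not read as expression, and wells with and without a marker are compared instead. The 15 control wells of each plate held 1, 0 and 2 Wnt4 counts. They were shallow, with medians of 129, 150 and 632 counts. Their Wnt4 level was 340 CPM (8.61 to 1895) on the E12.5 cultured and 145 CPM (17.6 to 525) on the uncultured plate. On the E11.5 cultured plate 0 counts allow up to 1347 CPM. The control wells thus set no background below the level of the kept wells.

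In the uncultured kidney, Wnt4 was high in wells with markers of nephron progenitors and of the early nephron. Its counts in the 57 wells with Lhx1, a homeobox factor of the first epithelial vesicles, came to 356 CPM (322 to 392), against 84.7 CPM (74.5 to 95.6) in the other wells, a 4.21-fold difference (3.59 to 4.95). The level in the other wells lay within the interval of the macrophage-marked wells. The difference was 3.06-fold (2.57 to 3.66) without the well with most Wnt4 and 2.21-fold (1.71 to 2.85) without deep wells. Wells with Pax8, a paired-box factor of the same structures, showed 234 CPM (216 to 255), against 55.6 CPM (45.0 to 67.8), or 4.22-fold (3.40 to 5.29). Wells with Six2, the factor that maintains nephron progenitors, showed 188 CPM (172 to 204), against 96.0 CPM (79.7 to 114), or 1.95-fold (1.61 to 2.40). Of 9 progenitor markers with enough wells, 8 marked wells with more Wnt4 and 0 marked wells with less, and of 9 early nephron markers the numbers were 7 and 0. These counts use intervals above or below 1, and the markers share wells, so they are not independent of each other. The deep well with most Wnt4 alone held 9 progenitor markers. The share of all genes that would be called in the same way is not given here. Such marker numbers, also those of the other ligands and plates, are therefore descriptions without a background to read them against. All 4 skeletal muscle markers found there and 4 of 6 neural markers also went with more Wnt4, and 0 of 8 macrophage markers did. Wells with Myog, the muscle factor, stood at 556 CPM, against 117 CPM, in 13 wells, and the part of these other cell types and of depth in the result was not tested.

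The cultured plates differed from that pattern. At E12.5, 1 of 9 progenitor markers went with more Wnt4 and 6 with less, and on the E11.5 cultured plate the numbers were 3 and 2. Six2 itself went with neither, at 1.19-fold (0.99 to 1.44) on the E12.5 and 1.10-fold (0.87 to 1.37) on the E11.5 cultured plate. Wells with Six2 but neither Foxd1 nor Epcam held Wnt4 at 462 CPM (385 to 547) in 18 E12.5 cultured wells. In 25 such E11.5 cultured wells it stood at 172 CPM (126 to 230). Wells with none of the 3 had 290 CPM (254 to 329) and 187 CPM (166 to 210). Of 7 early nephron markers 1 went with more and 4 with less on the E12.5 cultured plate, and 4 with more and 2 with less on the E11.5 cultured plate. Lhx1 wells of the E12.5 cultured plate had 51.1 CPM (26.4 to 89.3), against 238 CPM (218 to 260) in the other wells, but the 13 wells held only 12.0 Wnt4 counts, and with 2 counts of Lhx1 required the ratio was 1.17 (0.56 to 2.17). On the E11.5 cultured plate fewer than 5 wells held Lhx1, with a ratio of 2.46 (1.11 to 4.70). Pax8 wells stood at 198 CPM (149 to 257), against 222 CPM (202 to 243), on the E12.5 cultured plate, and at 101 CPM (67.9 to 144), against 151 CPM (138 to 166), on the E11.5 cultured plate.

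Most of the 10 wells with most Wnt4 counts on each cultured plate carried Alx1, a homeobox gene listed with the stroma markers. However, more of that list went with less Wnt4 than with more. Alx1 and Pdgfra were singled out after their values were seen. Of its 12 markers, 2 (Alx1 and Pdgfra) went with more Wnt4 and 8 with less on the E12.5 cultured plate, 3 with more and 5 with less on the E11.5 cultured plate, and 3 with more and 5 with less on the uncultured plate. At E12.5 after culture Wnt4 stood at 481 CPM (433 to 532) in the 57 Alx1 wells, against 91.3 CPM (77.0 to 107) in the others, a 5.26-fold difference (4.33 to 6.43). These wells held 72.0% of Wnt4 counts and 32.8% of all counts. On the E11.5 cultured plate the 72 Alx1 wells had 304 CPM (267 to 343), against 91.4 CPM (79.6 to 104), a level within the macrophage-marked interval with or without its top well, or 3.32-fold (2.76 to 4.0). Before culture the direction was opposite: 61.2 CPM (45.7 to 79.9) in 43 Alx1 wells, against 185 CPM (171 to 201) in the others, or 0.33-fold (0.24 to 0.44). Wnt4 was found in 34 of 57 Alx1 wells, against 36 of 143 others, on the E12.5 cultured plate, in 27 of 72, against 75 of 228, on the E11.5 cultured plate, and in 16 of 43, against 113 of 294, on the uncultured plate. At E11.5 the contrast thus lay in the counts per well more than in the number of wells. Each of these 3 directions was the same when deep wells or the well with most Wnt4 were left out or when 2 counts of Alx1 were required. The plates' difference in this contrast could not be tested with 1 plate each. Pdgfra, a growth factor receptor of mesenchyme, showed smaller ratios of 1.65 (1.30 to 2.11) and 1.46 (1.11 to 1.94) on the E12.5 and E11.5 cultured plates, against 0.91 (0.78 to 1.07) on the uncultured plate.

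Of the 10 wells with most Wnt4, 8 had Alx1 and 0 had Lhx1 or Pax8 on the E12.5 cultured plate, and 7 had Alx1 and 0 had Lhx1 or Pax8 on the E11.5 cultured plate. Among the uncultured wells 1 of the 10 had Alx1, 6 had Lhx1 and 9 had Pax8. The same 10 also held Six2 in 8, Foxd1 in 8, Epcam in 7 and Col1a1 in 8 of them. Wells were ranked by counts and not by CPM, which favours deep wells, where more markers are detected. One of the uncultured 10 had 364620 counts and Wnt4 at only 74.3 CPM. Over all wells, Alx1 was found in 28.5% and 24.0% on the E12.5 and E11.5 cultured plates, and Pax8 in 37.7% on the uncultured plate. The well with most Wnt4 on the uncultured plate, which had 151478 counts, held 86.9 counts of Lhx1 and 115.6 of Pax8, whereas the well with most on the E11.5 cultured plate held 52.3 Wnt4 counts, 2 of Alx1 and 0 of either early nephron factor.

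**Figure D2:**
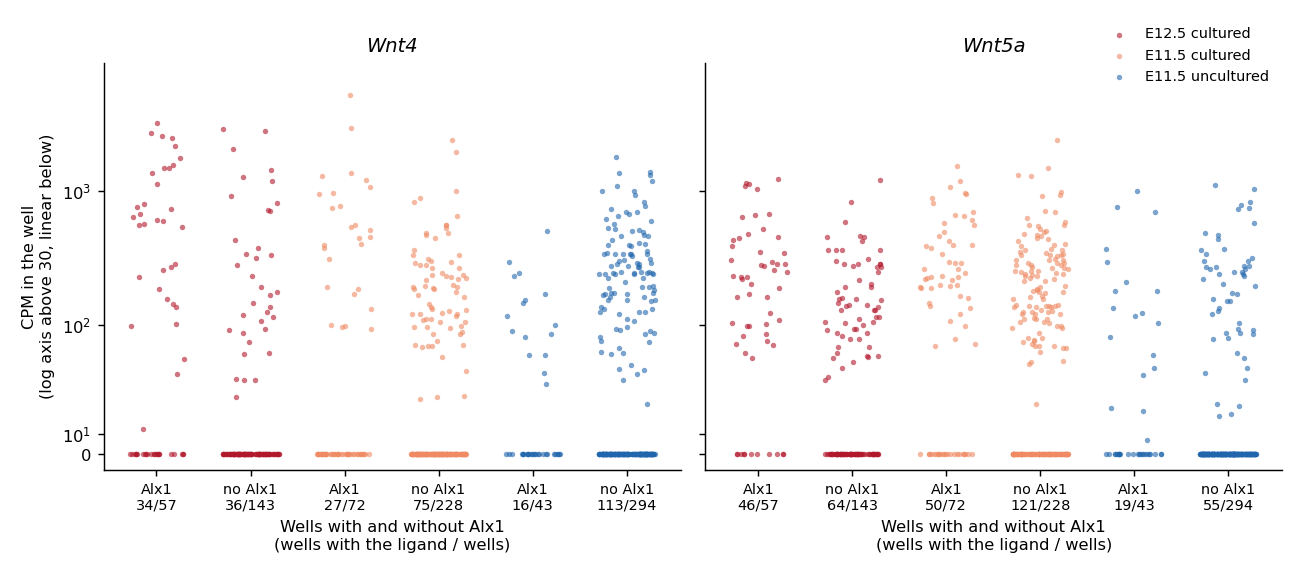
CPM of Wnt4 and Wnt5a in each single-cell well, split by a count of Alx1, for the E12.5 cultured, E11.5 cultured and E11.5 uncultured plates; each point is 1 well and the axis is logarithmic above 30 CPM. Wnt4 summed to 481 CPM in Alx1 wells, against 91.3 CPM in others, on the E12.5 cultured plate, and to 61.2 CPM, against 185 CPM, on the uncultured plate.

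Foxd1, the factor of cortical stroma, marked wells with less Wnt4 on both cultured plates. Wnt4 stood at 66.6 CPM (52.3 to 83.4) in 96 Foxd1 wells of the E12.5 cultured plate, against 360 CPM (327 to 395) in the others, or 0.18-fold (0.14 to 0.24). On the E11.5 cultured plate it stood at 98.6 CPM (82.1 to 117), against 178 CPM (160 to 198), or 0.55-fold (0.45 to 0.68). The uncultured ratio was 0.93 (0.79 to 1.10), 0.66 (0.55 to 0.79) without the well with most Wnt4 and 0.47 (0.37 to 0.60) without deep wells. Of the 205 uncultured Foxd1 wells, 84 also held Six2 and 18 held Six2 and Epcam, so Foxd1 did not set stroma apart there. The 98 uncultured wells with Foxd1 alone of these 3 markers stood at 45.7 CPM (30.8 to 65.2). The 52 with Six2 alone stood at 222 CPM (183 to 266). Wells with none of Six2, Foxd1 and Epcam held 46.3% of Wnt4 counts on the E12.5 cultured and 63.0% on the E11.5 cultured plate, against 6.64% on the uncultured plate, and they held 34.9%, 49.3% and 12.2% of all counts.

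Col1a1, the chain of fibrillar collagen, did not divide the cultured wells by detection, since 199 of 200 and 300 of 300 held it, against 246 of 337 uncultured wells. Split by its level into low, middle and high wells, the E12.5 cultured plate had 276 CPM of Wnt4 (241 to 315) in low wells, 359 CPM (316 to 405) in middle wells and 44.5 CPM (31.3 to 61.3) in high wells. The same wells of the E11.5 cultured plate had 158, 130 and 149 CPM, and those of the uncultured plate 195, 184 and 42.5 CPM. Wells rich in Col1a1 thus held least Wnt4 on the E12.5 cultured and uncultured plates, while on the E11.5 cultured plate the intervals of the 3 classes overlapped.

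Epcam, an adhesion protein of epithelia, was found in 17 wells (8.50%) of the E12.5 cultured plate, 10 (3.33%) of the E11.5 cultured plate and 38 (11.3%) of the uncultured plate, in 7, 6 and 22 of them with a single count. Wnt4 stood at 502 CPM (405 to 614) in them on the E12.5 cultured plate, against 195 CPM (177 to 215) in the others, or 2.58-fold (2.03 to 3.23). On the E11.5 cultured plate the ratio was 0.43 (0.17 to 0.89), from 7 counts in the Epcam wells. In uncultured Epcam wells it was 249 CPM (224 to 276), against 112 CPM (99.8 to 125), or 2.22-fold (1.90 to 2.6). That last difference was 1.44-fold (1.20 to 1.72) without the well with most Wnt4 and 1.07-fold (0.88 to 1.32) with 2 counts of Epcam required, so it is not called.

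Within Epcam wells the Wnt4 level differed between wells with more ureteric and wells with more early nephron markers, in opposite directions before and after culture. The classes go by the number of markers detected, from lists of 12 ureteric and 10 early nephron genes, and do not name cell types. The uncultured well with most Wnt4 in the ureteric class held ureteric markers at 432 CPM and early nephron markers at 1207 CPM. Of the uncultured Epcam wells, 12 had more early nephron than ureteric markers and held Wnt4 at 682 CPM (596 to 777), and 19 had more ureteric markers and held it at 149 CPM (117 to 185). Without the well with most Wnt4 in each class, the levels were 416 CPM (326 to 521) and 32.8 CPM (17.9 to 55.0). The order was opposite on the E12.5 cultured plate, with 1126 CPM (897 to 1392) in 7 wells with more ureteric markers, against 92.7 CPM (42.4 to 176) in 8 wells with more early nephron markers. Without the top well of each class these were 840 CPM (627 to 1102) and 34.7 CPM (7.15 to 101). Of those 7 wells, the 3 richest in ureteric markers had 7 of them each and held 15, 8 and 13 Wnt4 counts, while the one with most, 32.1 counts, had 1 count of Epcam and 2 ureteric markers. It held 31.1 counts of Col1a1, and another with 14 Wnt4 counts had 1 of Epcam and 32.1 of Col1a1. In the early nephron class, 6 of the 9 Wnt4 counts came from 1 well. That well had 1 count of Epcam, 2 early nephron markers, 0 of Lhx1 and 82.8 counts of Col1a1. Other wells of that class with 1 count of Epcam held 35.2 and 45.2 of Col1a1. The opposite order was thus not shown to be one between epithelial cells. On the E12.5 cultured plate Wnt7b (134 and 61.8 CPM) and Wnt5a (134 and 175 CPM) had overlapping intervals in the ureteric and early nephron classes.

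**Figure D3:**
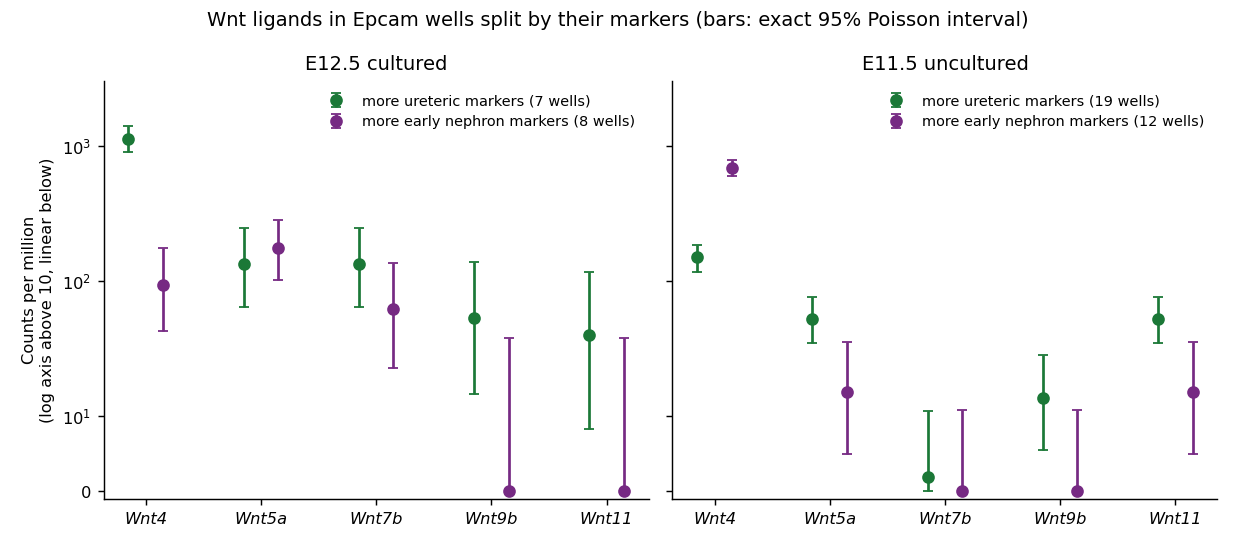
CPM of the 5 ligands (log axis above 10 CPM) in Epcam wells with more ureteric markers and in Epcam wells with more early nephron markers, on the E12.5 cultured and E11.5 uncultured plates, with exact 95% Poisson intervals. Wnt4 stood at 1126 and 92.7 CPM in these classes on the E12.5 cultured plate and at 149 and 682 CPM on the uncultured plate; all Wnt9b counts in the plotted wells came from wells with more ureteric markers.

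Wnt11, the ligand of ureteric tips, was scarce, with 20, 64 and 57 counts on the E12.5 cultured, E11.5 cultured and uncultured plates. These gave 8.51 CPM (5.2 to 13.1), 19.9 CPM (15.4 to 25.5) and 13.7 CPM (10.4 to 17.8), in 16, 38 and 31 wells. The E11.5 cultured plate stood 1.45-fold (1.00 to 2.12) and the E12.5 cultured plate 0.62-fold (0.35 to 1.05) relative to the uncultured plate, and the E12.5 cultured plate 0.43-fold (0.24 to 0.72) relative to the E11.5 cultured plate. Macrophage-marked wells held 0, 6 and 0 Wnt11 counts and the control wells none. In macrophage-marked wells 0 counts allow up to 27.0 CPM on the E12.5 cultured and 26.7 CPM on the uncultured plate. Both lie above the level of the whole plate. In the control wells 0 counts allow up to 1255, 1347 and 268 CPM. The 6 counts came to 16.8 CPM (6.17 to 36.6), an interval that holds the level of the whole E11.5 cultured plate. The plate level of Wnt11 was thus not shown to lie above this measure on any plate. The 1 well that gave 4 of them also held 7 counts of Foxd1 and 70.6 of Col1a1. Without it the level was 5.79 CPM (0.70 to 20.9).

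Before culture the Wnt11 level was higher in wells with ureteric markers, though 21 of its 57 counts lay outside Epcam wells. By Col1a1 level it stood at 14.2, 11.2 and 19.4 CPM in low, middle and high wells, with overlapping intervals. The level was 52.2 CPM (34.7 to 75.5) in the 18 wells with Ret, the receptor for the branching signal Gdnf, against 8.0 CPM (5.36 to 11.49) in the others, or 6.53-fold (3.74 to 11.4). Wells with Gata3, a factor of the ureteric lineage, had 28.1 CPM (19.2 to 39.6), against 8.28 CPM (5.36 to 12.2), or 3.39-fold (1.95 to 5.97). Epcam wells had 25.1 CPM (17.6 to 34.7), against 7.71 CPM (4.77 to 11.8), or 3.25-fold (1.85 to 5.86), and 11.47-fold (6.05 to 22.2) without deep wells. The 8 wells with Epcam and neither Six2 nor Foxd1 held 19 of the 57 counts at 285 CPM (172 to 446). The 2 wells with most Wnt11 held 8 and 6 counts beside 10 and 7 of Epcam and 7 and 3 of Ret. Of 10 ureteric markers 6 went with more Wnt11 and 0 with less, and of 9 progenitor markers 0 with more and 8 with less, Six2 at 0.35-fold (0.20 to 0.61). Of 9 early nephron markers 2 went with more and 2 with less, and of 12 stroma markers 1 with more and 4 with less.

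After culture most Wnt11 counts lay outside Epcam wells, but so did most counts of all genes. Epcam wells held 7.89% of all counts on the E12.5 cultured and 3.39% on the E11.5 cultured plate, against 34.5% on the uncultured plate. The 10 Epcam wells of the E11.5 cultured plate held 0 of its 64 counts, which allows up to 33.9 CPM there, against 20.6 CPM (15.9 to 26.4) in the other wells, so a lower level in Epcam wells was not detectable at this depth. The 17 Epcam wells of the E12.5 cultured plate held 3 of 20 counts, or 2.06-fold (0.39 to 7.12) the level of the other wells. No direction is called there. Ret wells of the E11.5 cultured plate held 5 counts, for a ratio of 2.09 (0.66 to 5.17). Alx1 wells had more Wnt11 than other wells on both cultured plates, at 15.6 CPM (8.04 to 27.2), against 5.07 CPM (2.19 to 9.99), or 3.07-fold (1.15 to 8.65), on the E12.5 cultured plate. On the E11.5 cultured plate they had 32.3 CPM (21.3 to 47.1), against 15.6 CPM (11 to 21.5), or 2.08-fold (1.22 to 3.50), and both levels lie within the macrophage-marked interval of that plate. Without its top well that interval ran from 0.70 to 20.9 CPM, which the Alx1 wells exceed. Uncultured Alx1 wells had 5.76 CPM (1.87 to 13.5), against 15.8 CPM (11.8 to 20.7), or 0.36-fold (0.11 to 0.91).

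**Figure D4:**
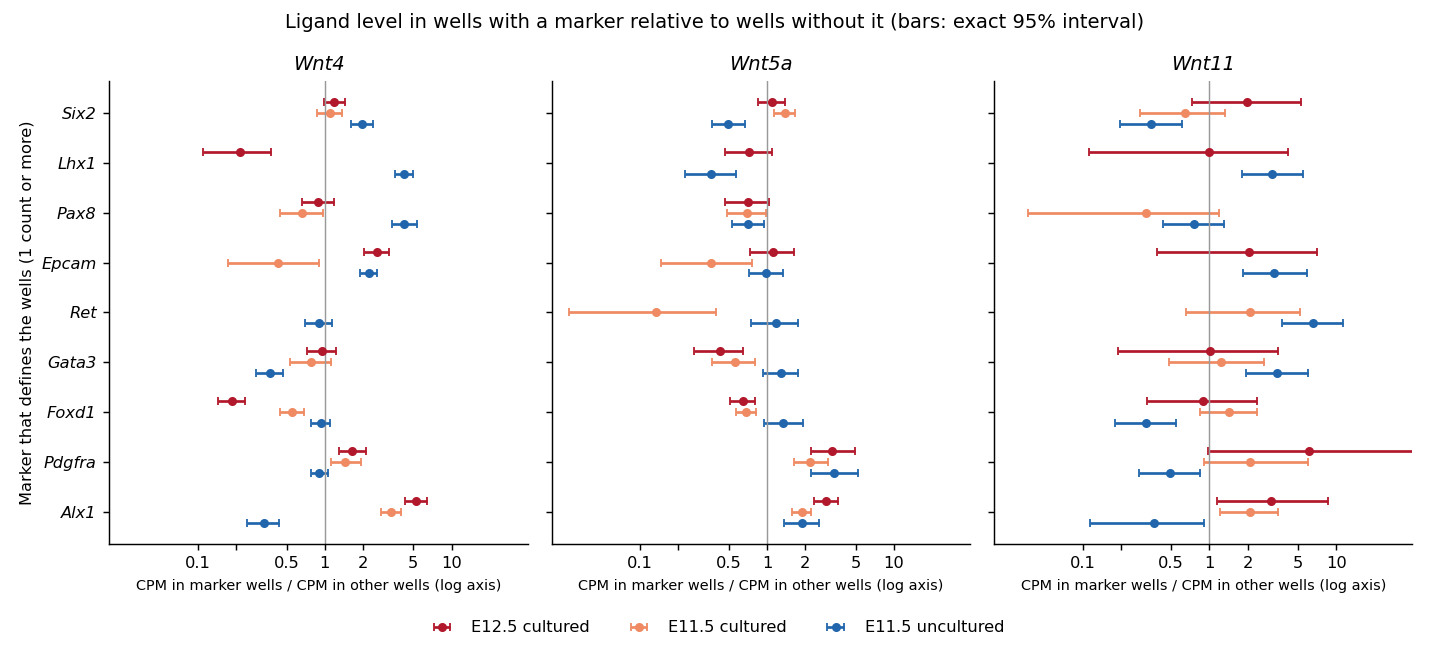
Level of Wnt4, Wnt5a and Wnt11 in wells with a marker divided by that in wells without it (log axis), by plate, with exact 95% intervals; a value is missing where a plate had under 5 marker wells or the fold is not given, and the bar of Wnt11 in Pdgfra wells of the E12.5 cultured plate runs to 253. Wnt4 lies at 4.21 for Lhx1 and 0.33 for Alx1 on the uncultured plate, and at 5.26 and 3.32 for Alx1 on the E12.5 and E11.5 cultured plates.

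Wnt7b, the ligand of the ureteric trunk, was scarce everywhere and was found mostly in epithelial wells. It had 17 counts in 6 wells on the E12.5 cultured plate, 9 counts in 4 wells on the E11.5 cultured plate and 1 count on the uncultured plate, or 7.24 CPM (4.22 to 11.6), 2.80 CPM (1.28 to 5.32) and 0.24 CPM (0.01 to 1.34). Relative to the uncultured plate the ratios were 30.1 (4.72 to 1258) and 11.7 (1.62 to 511) for the E12.5 and E11.5 cultured plates, from that single uncultured count. The E12.5 cultured plate stood 2.58-fold (1.09 to 6.57) relative to the E11.5 cultured plate. Of the 17 counts on the E12.5 cultured plate, 16 lay in Epcam wells, at 86.3 CPM (49.3 to 140), against 0.46 CPM (0.01 to 2.58) elsewhere. Of the 9 on the E11.5 cultured plate, 5 lay in Epcam wells, and the other 4 in 1 well with no Epcam but 2 counts of Ret and 10 of Gata3. The single uncultured count lay in an Epcam well with 5 ureteric markers.

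Wnt9b, the ureteric signal to nephron progenitors, had 5, 1 and 7 counts in 4, 1 and 5 wells of the E12.5 cultured, E11.5 cultured and uncultured plates. These gave 2.13 CPM (0.69 to 4.97), 0.31 CPM (0.01 to 1.74) and 1.68 CPM (0.68 to 3.47), and all 3 intervals overlap. The ratio to the uncultured plate was 1.26 (0.32 to 4.63) for the E12.5 cultured plate and 0.19 (up to 1.44) for the E11.5 cultured plate, so a difference was not detectable at this depth. All 7 uncultured counts lay in Epcam wells, at least 4.42-fold above the others at a floor of 3 counts over those others, and each of these 5 wells had more ureteric than early nephron markers. The uncultured well with most Wnt9b, 3 counts, held 14 of Epcam, 3 of Ret, 21.1 of Gata3 and 10 ureteric markers. On the E12.5 cultured plate 4 of 5 counts lay in Epcam wells, and 3 of the 4 Wnt9b wells were also Wnt7b wells. The 1 count on the E11.5 cultured plate lay in a well that also held Wnt7b. Neither ligand was found in a macrophage-marked or control well. In macrophage-marked wells 0 counts allow up to 27.0, 10.3 and 26.7 CPM on the E12.5 cultured, E11.5 cultured and uncultured plates. These limits lie above the levels of Wnt7b and Wnt9b on each plate, so the absence there shows no difference.

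Wnt5a, the mesenchymal ligand, was higher on both cultured plates. It stood at 143 CPM (128 to 159) on the E12.5 cultured plate, 173 CPM (159 to 188) on the E11.5 cultured plate and 45.7 CPM (39.4 to 52.7) on the uncultured plate. The ratios to the uncultured plate were 3.12 (2.61 to 3.75) for the E12.5 and 3.79 (3.21 to 4.49) for the E11.5 cultured plate, and that of the E12.5 to the E11.5 cultured plate was 0.82 (0.72 to 0.94). Wnt5a was found in 110 of 200, 171 of 300 and 74 of 337 wells, or 55.0%, 57.0% and 22.0%. With wells thinned to 3000 counts the shares were 26.2%, 37.2% and 13.5% of 191, 288 and 296 wells. Macrophage-marked wells held it at 80.5 CPM (40.2 to 144), 67.2 CPM (43.1 to 100) and 50.6 CPM (20.4 to 104), in 2 of 6, 6 of 23 and 2 of 20 of them. The E12.5 cultured and uncultured levels lay within these intervals and the E11.5 cultured level above its interval. Of the 7 uncultured background counts, 6 came from 1 well. On the E12.5 cultured plate 6 of 11 came from 1 well with 76881 counts in all and 1704 of Col1a1. The control wells of the 3 plates held 0, 0 and 1 Wnt5a counts, the last at 72.6 CPM (1.84 to 405).

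Among all genes with at least 10 counts in the plate pair, 20.9% were at least 2-fold higher and 11.3% at least 2-fold lower on the E11.5 cultured than on the uncultured plate. For the E12.5 cultured against the uncultured plate these were 18.9% and 13.1%, and for the E12.5 against the E11.5 cultured plate 4.53% and 8.33%. Of the 4 ligands with enough counts in the first pair, Wnt5a and Wnt7b were at least 2-fold higher and 0 were lower. In the second pair the same 2 of 5 were higher and 0 lower. In the third pair, of 4, Wnt7b was higher and Wnt11 lower.

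Wnt5a went with Pdgfra and Alx1 on every plate, but not with the stroma list as a whole after culture. Of its 12 markers, 3 went with more Wnt5a and 5 with less on the E12.5 cultured plate, 2 with more and 5 with less on the E11.5 cultured plate, and 6 with more and 0 with less on the uncultured plate. Pdgfra wells had 172 CPM (153 to 192), against 52.6 CPM (35.5 to 75.0), or 3.26-fold (2.24 to 4.92), on the E12.5 cultured plate. They had 192 CPM (175 to 209), against 87.4 CPM (64.8 to 115), or 2.20-fold (1.64 to 3.0), on the E11.5 cultured plate, and 61.6 CPM (52.4 to 71.8), against 18.3 CPM (12.2 to 26.5), or 3.36-fold (2.24 to 5.21), on the uncultured plate. Alx1 wells had 2.92-fold (2.34 to 3.66), 1.88-fold (1.58 to 2.23) and 1.88-fold (1.37 to 2.56) the level of other wells on the E12.5 cultured, E11.5 cultured and uncultured plates. Unlike Wnt4 and Wnt11, Wnt5a thus had the same direction in Alx1 wells on all 3 plates. Foxd1 wells were lower on both cultured plates, at 0.65-fold (0.51 to 0.81) and 0.69-fold (0.57 to 0.83), against 1.34-fold (0.95 to 1.92) on the uncultured plate.

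Nephron progenitor wells held less Wnt5a before culture. Six2 wells of the uncultured plate had 34.8 CPM (28.3 to 42.3), against 70.2 CPM (56.4 to 86.3) in the others, or 0.50-fold (0.37 to 0.67), and the 52 wells with Six2 but neither Foxd1 nor Epcam held 3 counts, at 5.73 CPM (1.18 to 16.7). Of 9 progenitor markers 7 went with less Wnt5a and 0 with more. On the cultured plates the Six2 ratios were 1.09 (0.85 to 1.37) at E12.5 and 1.38 (1.14 to 1.68) at E11.5, but with 2 counts of Six2 required the second was 0.48 (0.28 to 0.75). Epcam wells stood at 1.11-fold (0.73 to 1.62), 0.36-fold (0.15 to 0.75) and 0.99-fold (0.72 to 1.34) the other wells on the E12.5 cultured, E11.5 cultured and uncultured plates.

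Wnt4 and Wnt5a were found together in 49 wells of the E12.5 cultured plate, 73 of the E11.5 cultured plate and 34 of the uncultured plate. In wells with Wnt5a, Wnt4 stood at 297 CPM (270 to 327), against 88.7 CPM (70.1 to 111) in wells without it, on the E12.5 cultured plate. It stood at 189 CPM (171 to 209), against 72.9 CPM (58.3 to 89.9), on the E11.5 cultured plate, and at 80.5 CPM (67.6 to 95), against 215 CPM (196 to 234), on the uncultured plate. The ratios were 3.35 (2.63 to 4.32), 2.6 (2.05 to 3.32) and 0.38 (0.31 to 0.45). By summed counts, wells with Wnt5a thus held the higher Wnt4 level on the cultured plates and the lower one on the uncultured plate. Deep wells lay on both sides of the uncultured ratio. The well with 150.7 of the 662.7 Wnt4 counts held 0 of Wnt5a. A well with 364620 counts in all held 29.1 of Wnt5a and Wnt4 at 74.3 CPM. The size of the uncultured ratio without deep wells was not calculated. By number of wells the ligands did not lie apart on any plate, since the product of their shares gives 38.5, 58.1 and 28.3 shared wells. Wells with both were deeper than the median well, at 12392, 10751 and 11642 counts. Uncultured Wnt9b and Wnt11 were found together in 3 of 5 Wnt9b wells.

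Each cultured plate also had 42 wells labelled as holding more than 1 cell, with 642840 and 632925 counts on the E12.5 and E11.5 cultured plates; 4 and 6 of them had under 1000 counts and were kept. Six2 was 5.20-fold (4.30 to 6.34) and 4.78-fold (3.72 to 6.12), and Epcam 4.83-fold (3.33 to 7.03) and 4.46-fold (2.61 to 7.57), above the single-cell wells. Wnt5a was lower in multi-cell wells, at 88.7 CPM (67.2 to 115), against 143 CPM in single-cell wells, or 0.62-fold (0.46 to 0.83), at E12.5 and at 80.6 CPM (60.0 to 106), against 173 CPM, or 0.47-fold (0.34 to 0.62), at E11.5. Wnt4 stood at 268 CPM (231 to 312), against 219 CPM, or 1.23-fold (1.03 to 1.46), at E12.5 and at 90.1 CPM (68.2 to 117), against 147 CPM, or 0.61-fold (0.46 to 0.81), at E11.5. On the E12.5 plate 1 multi-cell well held 50.3 of 172.6 Wnt4 counts, and the mean of wells' CPM gave 0.79-fold, so no direction is called there. Without deep wells the E11.5 ratios were 0.20 (0.08 to 0.39) for Wnt4 and 0.22 (0.11 to 0.40) for Wnt5a.

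The scarce ligands gave few counts in multi-cell wells. Wnt7b had 2 and 2 counts, Wnt9b 0 and 1, and Wnt11 4 and 7 on the E12.5 and E11.5 cultured plates. Wnt11 stood at 0.73-fold (0.18 to 2.18) and 0.55-fold (0.21 to 1.21) the single-cell wells, and no difference was detectable at this depth. Foxd1 differed in direction between the plates, at 0.51-fold (0.38 to 0.68) and 3.89-fold (3.26 to 4.62), and Col1a1 stood at 0.28-fold (0.26 to 0.30) and 1.11-fold (1.08 to 1.14). The sources used here do not say how the cells of these wells were chosen.

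**Figure D5:**
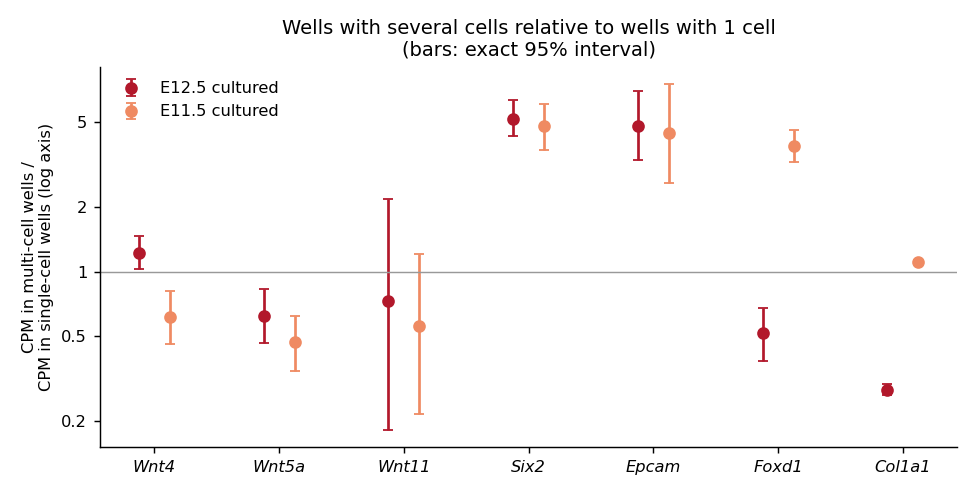
CPM in multi-cell wells divided by CPM in single-cell wells (log axis) for 3 ligands and 4 markers on the E12.5 and E11.5 cultured plates, with exact 95% intervals. Wnt5a lies below 1 on both plates at 0.62 and 0.47, while Six2 and Epcam lie between 4.46 and 5.20.

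The genes most like each ligand across wells were found by Pearson's r of log2 counts per 10000 plus 1. The wells of a plate share its library and differ in depth, so these values describe the plate and are no test. On the E12.5 cultured plate, over 200 wells, Wnt4 was most like AC122860.2 (r = 0.58), the neurexin gene Nrxn3 (0.57), the protease gene Corin (0.54), the ephrin receptor gene Epha4 (0.50) and the T-box gene Tbx3 (0.48). Wnt5a there was most like Epha4 (0.46), the cell cycle inhibitor gene Cdkn1c (0.43), Alx1 (0.42), the collagen gene Col15a1 (0.41) and Neto2 (0.41). Over the 337 uncultured wells, Wnt4 was most like the cadherin gene Cdh4 (0.42), Greb1 (0.41), Pax8 (0.40), Emid1 (0.38) and Smtnl2 (0.38). Wnt11 there was most like Fam84b (0.40), the integrin gene Itga3 (0.38), Epcam (0.37) and the claudin gene Cldn6 (0.35). On the E11.5 cultured plate, over 300 wells, likeness was weaker, with Wnt4 at 0.40 for Tbx3os1, a transcript named for its place opposite Tbx3, 0.35 for Slco3a1, 0.32 for Tanc1, 0.30 for Greb1 and 0.30 for Palld. Wnt5a reached 0.31 for Traf3ip1 and Wnt11 0.31 for Rad51d on that plate, and so weak a likeness is no finding.

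The other Wnt ligands were scarce. Of 14, 5 had at least 10 counts in the E11.5 cultured and uncultured pair, of which 3 were at least 2-fold higher on the cultured plate and 1 lower, with a median log2 ratio of 1.33, against 0.07 over all genes. Among all genes 20.9% were higher and 11.3% lower, and no excess is read from so short a list. Over the E12.5 cultured and uncultured pair 0 of 4 were higher and 1 lower, with a median of -0.10, and over the E12.5 and E11.5 cultured pair 0 of 4 were higher and 2 lower, with a median of -1.30. The shares of all genes were 18.9% and 13.1% in the former pair and 4.53% and 8.33% in the latter. Wnt5b, the close relative of Wnt5a, stood at 18.7 CPM on the E11.5 cultured plate, against 7.45 CPM on the uncultured plate, or 2.51-fold (1.60 to 4.0). All members of this and the following lists were compared between 1 plate and another.

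Genes that make and release Wnt ligands or shape their spread had a median log2 ratio of 0.53, with 3 of 9 at least 2-fold higher and 2 lower on the E11.5 cultured plate. Among all genes these shares were 20.9% and 11.3%, and no excess is read from 9 genes. Porcn, which attaches the lipid, stood at 17.1 CPM, against 5.05 CPM on the uncultured plate, or 3.39-fold (2.02 to 5.91). Gpc4, a glypican that binds Wnt ligands at the surface, was 4.02-fold (2.77 to 5.96) and Notum, the enzyme that removes the lipid, 2.85-fold (1.75 to 4.77). Sulf2, a sulfatase of heparan chains, was 0.41-fold (0.37 to 0.45), Vps35, which returns the carrier of Wnt ligands to the Golgi, 0.48-fold (0.42 to 0.54), and the glypican gene Gpc6 0.79-fold (0.71 to 0.87). On the E12.5 cultured plate, too, 3 of 9 were at least 2-fold above the uncultured plate and 1 was lower, against 18.9% and 13.1% of all genes.

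Receptors had a median log2 ratio of 0.14, with 4 of 15 at least 2-fold higher and 0 lower on the E11.5 cultured plate, against 20.9% and 11.3% of all genes, a share of higher genes near that background. Fzd1 stood at 292 CPM, against 76.2 CPM on the uncultured plate, or 3.82-fold (3.36 to 4.36). Ror2, the receptor of Wnt5a that acts without beta-catenin, stood at 101 CPM, against 32.2 CPM, or 3.14-fold (2.56 to 3.87), and its partner Ptk7 at 126 CPM, against 61.1 CPM, or 2.07-fold (1.77 to 2.43). Fzd3 at 0.53-fold (0.34 to 0.81), Fzd6 at 0.56-fold (0.30 to 1.02) and Fzd4 at 0.65-fold (0.53 to 0.79) lay lowest. On the E12.5 cultured plate Fzd1 was 2.72-fold (2.36 to 3.14) and Ror2 2.06-fold (1.63 to 2.62) the uncultured level. There 3 of 15 were at least 2-fold higher and 0 lower, against 18.9% and 13.1% of all genes.

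The beta-catenin pathway had a median log2 ratio of -0.19, with 2 of 18 at least 2-fold higher and 0 lower on the E11.5 cultured plate, against 20.9% and 11.3% of all genes. On the E12.5 cultured plate it had 0 of 18 in either direction, against 18.9% and 13.1% of all genes. Bcl9l, a coactivator, was 2.31-fold (1.99 to 2.67), and the Dishevelled genes Dvl1 and Dvl3 were 2.24-fold (1.60 to 3.18) and 1.88-fold (1.16 to 3.07). Ctnnb1, beta-catenin itself, stood at 458 CPM on the E11.5 cultured plate, against 885 CPM on the uncultured plate, or 0.52-fold (0.49 to 0.55), with Bcl9 at 0.57-fold (0.48 to 0.67) and Apc at 0.70-fold (0.59 to 0.83). The planar polarity list had a median of 0.33, with 1 of 10 at least 2-fold higher and 1 lower on the E11.5 cultured plate and 1 of 9 higher and 1 lower on the E12.5 cultured plate. The shares of all genes were 20.9% and 11.3% on the former plate and 18.9% and 13.1% on the latter. Celsr1 stood at 0.31-fold (0.17 to 0.54), Celsr2 at 0.52-fold (0.37 to 0.71) and Scrib at 0.65-fold (0.55 to 0.77), while Prickle1 stood at 1.72-fold (1.41 to 2.10), Prickle2 at 1.5-fold (1.23 to 1.83) and Daam2 at 1.43-fold (1.17 to 1.75). Between the E12.5 and E11.5 cultured plates, 0 genes of the other ligand, secretion, receptor, beta-catenin and polarity lists were at least 2-fold higher and 2 other ligands, 2 receptors and 1 polarity gene were lower. Among all genes 4.53% were higher and 8.33% lower in that pair.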

How the data were processed

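For each plate the authors deposited expected counts, 1 value for each gene in each well, and per the labels' protocols libraries were made by SORT-seq from cells sorted after collagenase. The counts equal numbers of distinct molecular identifiers corrected for repeats among 4096, as tested on the values. Per the submitters' processing notes, STAR 2.6.1a, featureCounts 1.5.2 and the build GRCm38.p5 were used; their settings and the sorting gate are not given in the sources used here. Transcripts are counted once each, so CPM was not scaled by length.

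A column of counts with no known well, 4.27%, 4.26% and 4.21% of the E12.5 cultured, E11.5 cultured and E11.5 uncultured totals, was left out, as were 15 control wells per plate. Single-cell wells under 1000 counts or with over 30% mitochondrial counts were dropped. CPM is counts per 1000000 counts of nuclear-encoded genes. No doublet caller was run; deep wells were left out as an alternative. Marker wells held at least 1 count of the marker, and markers in under 5 wells were passed over. Intervals were exact Poisson for levels and exact binomial (Clopper-Pearson) for ratios and shares, and the counts, some of them not whole, were rounded for these and for thinning. A fold against 0 counts used a floor of 3 counts.

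The named genes were the 5 ligands, the 5 genes most like a ligand on a plate where it was in at least 20 wells (genes in at least 10% of wells, r at least 0.3), the 3 pathway genes with the largest ratio in each direction at 50 or more counts, and cell type markers; Alx1, Lhx1, Pax8, Ret, Gata3 and Pdgfra were picked from the marker lists after their values were seen. The members and all lists were chosen with earlier results of these data known. The calculation of ratios and likeness was checked on simulated counts with Poisson noise only. These lack the uneven spread between wells, so the check does not bear on how well the intervals hold in these data. Computation used scipy 1.17.1, pandas 2.3.3, matplotlib 3.10.9, numpy 2.4.6 and python 3.11.15.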

Additional observations from a re-analysis of the deposited data

Results flagged for a closer look

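Several contrasts within a plate had opposite directions on different plates by summed counts, each with an interval on 1 side of 1, though some of these directions did not hold under other settings. None of these differences between plates was tested, since each group had 1 plate. Wnt4 in Alx1 wells stood at 5.26-fold and 3.32-fold the other wells on the E12.5 and E11.5 cultured plates, against 0.33-fold on the uncultured plate, and Wnt11 in Alx1 wells at 3.07-fold and 2.08-fold, against 0.36-fold. Wnt4 in Lhx1 wells stood at 0.21-fold on the E12.5 cultured plate, against 4.21-fold on the uncultured plate, but the E12.5 value rests on 12 counts in 13 wells and was 1.17 (0.56 to 2.17) with 2 counts of Lhx1 required. In Pax8 wells it stood at 0.67-fold on the E11.5 cultured plate, against 4.22-fold on the uncultured plate. Wnt4 in Epcam wells stood at 2.58-fold on the E12.5 cultured, 0.43-fold on the E11.5 cultured and 2.22-fold on the uncultured plate; the E11.5 cultured value rests on 7 counts, and the uncultured one was 1.07 (0.88 to 1.32) with 2 counts of Epcam required and is not called. Wnt5a in Six2 wells stood at 1.38-fold on the E11.5 cultured plate, against 0.50-fold on the uncultured plate, but with 2 counts of Six2 required the E11.5 cultured value was 0.48-fold (0.28 to 0.75), on the same side as the uncultured plate. Multi-cell wells had Wnt4 at 1.23-fold on the E12.5 cultured and 0.61-fold on the E11.5 cultured plate, but the E12.5 direction is not called, since 1 well held 50.3 of 172.6 counts and the mean of wells' CPM gave 0.79-fold.

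The transgene sequences showed opposite directions too. Wells with tdTomato transcripts had Wnt4 at 0.64-fold the other wells on the E12.5 cultured plate and 1.81-fold on the E11.5 cultured plate. Wells with transcripts of the EGFP-IRES-Cre cassette had Wnt4 at 0.84-fold on the E12.5 cultured, 1.30-fold on the E11.5 cultured and 2.66-fold on the uncultured plate, and Wnt5a at 1.32-fold, 0.70-fold and 0.16-fold. On the uncultured plate only 10 wells held the cassette and 1 of them gave 150.7 of their 176.7 Wnt4 counts; without it the ratio was 0.56 (0.36 to 0.83). Without the top well the E11.5 cultured ratio was 0.96 (0.78 to 1.18), and that of Wnt5a on the E12.5 cultured plate 1.18 (0.94 to 1.49).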

How the results depend on the processing

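A minimum of 3000 counts per well or no minimum moved none of the 15 ratios between plates beyond its interval. Without wells over 3 times the median, Wnt4 stood at 1.25-fold for the E11.5 cultured and 2.05-fold for the E12.5 cultured over the uncultured plate; as a mean of wells' CPM it stood at 1.15-fold and 2.0-fold, and at 1.74-fold for the E12.5 over the E11.5 cultured plate, with Wnt5a at 2.58-fold for the E12.5 cultured over the uncultured plate. Without the well with most Wnt4 on each plate, the E12.5 cultured over uncultured ratio was 1.59. Wnt4 in Epcam wells stood at 1.93-fold on the E12.5 cultured and 1.07-fold on the uncultured plate with 2 counts of Epcam required, and on the uncultured plate at 1.60-fold without deep wells and 1.44-fold without the top well. Wnt11 in uncultured Epcam wells stood at 11.47-fold without deep wells. In multi-cell wells the mean of wells' CPM gave Wnt4 0.79-fold and Wnt5a 0.39-fold at E12.5, and 0.425-fold and 0.29-fold at E11.5; without deep wells the E11.5 values were 0.20-fold and 0.22-fold. With 2 counts of the marker required, 3 directions turned: Wnt5a in Six2 wells of the E11.5 cultured plate (0.48), Wnt4 in Lhx1 wells (1.17) and Wnt7b in Pax8 wells (0.82) of the E12.5 cultured plate. Among alternatives chosen after seeing the data, leaving out the transgene well with most Wnt4 turned the EGFP-IRES-Cre ratio to 0.56 (uncultured) and 0.96 (E11.5 cultured). Of the 26 likeness values, 9 were under 0.3 by Spearman's rho. The cause of these changes was not tested. No paired analysis was possible because each group had 1 plate. Thinning to 1000 counts left Wnt7b and Wnt9b in 0 to 2 wells a plate, so depth limits every statement on them.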
